A study of Rattus norvegicus with 12 samples.

Results

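The genes described here are 9 regulators of muscle loss and muscle formation, picked by name from the 56953 gene rows of the 2 deposited count tables. They are Trim63 (ENSMUSG00000028834), Fbxo32 (ENSMUSG00000022358), Foxo1 (ENSMUSG00000044167), Mstn (ENSMUSG00000026100), Myod1 (ENSMUSG00000009471), Myog (ENSMUSG00000026459), Myf6 (ENSMUSG00000035923), Pax7 (ENSMUSG00000028736) and Chrna1 (ENSMUSG00000027107). All 9 were present in both tables, and all 9 were among the 10450 genes tested after a filter on low counts.

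The tissue was muscle of wild-type Long-Evans rats, an outbred laboratory strain, taken at a surgery or implantation site. The labels give 4 groups of 3 biological replicates: back muscle with MFIT, the injection of a magnetic fluid, back muscle with NT, meaning no treatment or sham surgery, leg muscle with MFIT and leg muscle with NT. Collection at 7 and 14 days is stated for the series, but no sample label carries a day, so muscle and day cannot be told apart. The tables hold 3 columns coded ST and 3 coded WT for each muscle. Neither code is a treatment label, and WT is also the genotype label of all 12 samples, so the columns are compared by code and muscle alone, and no column is called treated or control. Differences are given as ST minus WT, which names the direction of the arithmetic only.

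Skeletal muscle loses mass when protein breakdown outpaces synthesis. Trim63 (MuRF1) and Fbxo32 (atrogin-1, MAFbx) encode muscle ubiquitin ligases that mark proteins for the proteasome, and both are known targets of FoxO transcription factors such as Foxo1. Mstn encodes myostatin, a secreted inhibitor of muscle growth. Myod1, Myog and Myf6 (MRF4) encode basic helix-loop-helix factors that bind E-boxes and switch on muscle genes, Pax7 marks satellite cells, the stem cells of muscle, and Chrna1 encodes the alpha subunit of the muscle acetylcholine receptor.

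Between 3329994 and 7164682 reads per column were assigned to genes, which was 30.3% to 36.4% of the reads in a column. Unmapped reads made up 52.4% to 61.2%. The rows carry mouse gene identifiers although the tissue was rat, so levels of different genes are not compared. Back ST column 1 stood apart from back ST columns 2 and 3. On the first principal component of log2 expression, which held 49.7% of the variance, it lay at -39.9, beside the back WT columns at -44.5 to -39.8, while back ST columns 2 and 3 lay at 14.9 and -1.54. Its TMM factor, a scaling for library composition, was 0.851, against 0.852 to 0.871 in the back WT columns and 1.05 and 1.08 in the other back ST columns. The tests between columns that include it, and the order of levels, are given with and without it. Leaving it out had to enlarge the back differences of Fbxo32, Trim63, Mstn, Myog and Myf6, where it lay nearest to the WT columns. The larger differences and smaller p-values without it are therefore a description and no added support. Transcripts of Trim63, Mstn and Myf6, which are largely confined to muscle, had reads in all 12 columns. Markers of leukocytes, fibroblasts, fat and vessels were not analysed here, so their part in any result was not tested.

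In back muscle the ubiquitin ligase genes were higher in the ST columns than in the WT columns, and 3 genes of the myogenic and myostatin group were lower. Fbxo32 differed most, by 4.04-fold. Of the 9 genes, 2 were higher and 3 lower at an adjusted p under 0.05 (edgeR quasi-likelihood test, Benjamini-Hochberg over all genes tested), against a background of 3.78% of all genes called. The 9 genes were chosen with earlier results of these data known. Their shares beside the background, here and below, are therefore a description only. The median difference was -0.35 on the log2 scale over the 9 genes and 0.01 over all genes tested. In bulk tissue, fewer cells of a type and less RNA per cell cannot be told apart. Levels are given as CPM, read counts relative to the library's TMM-scaled total.

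Fbxo32 was at 87.5, 87.0 and 101 CPM in back WT columns 1 to 3 and at 157, 397 and 556 CPM in back ST columns 1 to 3. All 3 ST columns lay above all 3 WT columns, and ST column 1 was the lowest of the ST columns. The difference was 2.01 ± 0.30 on the log2 scale (SE, 95% interval 1.38 to 2.64, adjusted p = 0.00523 by edgeR). Leaving out back ST column 1, the lowest of the ST columns, had to enlarge the difference, which was then 2.38 (adjusted p = 1.16e-10 by edgeR). With all columns, its p was the 9th smallest of the 10450 genes.

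Trim63 was at 245, 213 and 252 CPM in the back WT columns and at 281, 375 and 487 CPM in the back ST columns. The columns did not overlap, and the order of the 3 ST columns was that seen for Fbxo32. The difference was 0.69 ± 0.16 on the log2 scale (SE, adjusted p = 0.0295 by edgeR), or 1.61-fold. Without back ST column 1 it was 0.87, with an adjusted p of 1.97e-05.

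The sequence before the Trim63 start site is shown because FoxO factors are known to act on this gene. It is the 250 bases before the start of rat Trim63 in RefSeq, build GRCr8, chr5:151816986-151817235, plus strand. Capitals mark matches on either strand to 4 motifs. The FoxO core was searched as TGTTTAC. The steroid receptor half-site was searched as TGTTCT. The E-box was searched as CANNTG. The TATA box was searched as TATAAA.
Trim63: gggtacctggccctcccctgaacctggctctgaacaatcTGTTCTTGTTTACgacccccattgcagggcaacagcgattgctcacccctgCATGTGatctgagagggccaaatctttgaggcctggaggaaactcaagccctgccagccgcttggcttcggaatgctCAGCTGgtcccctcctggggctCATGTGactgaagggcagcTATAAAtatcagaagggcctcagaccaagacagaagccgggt
The FoxO core starts 205 bases before the start site and directly follows the half-site, which starts at 211, with no overlap. It was found in 3.21% of 33469 RefSeq windows of this length and position, the half-site in 17.5%, the E-box in 65.5% and the TATA box in 12.9%. E-boxes lie at 160, 83 and 61 bases and a TATA box at 42. These are matches of letters and not measured binding. The RefSeq table had entries for 6 of the 9 genes, matched by symbol, and none for Fbxo32, Mstn or Myod1.

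Foxo1, the FoxO factor of the group, was at 17.4, 17.7 and 15.5 CPM in the back WT columns and at 12.5, 10.4 and 16.5 CPM in the back ST columns. The columns overlapped. The difference of -0.35 ± 0.19 on the log2 scale (SE, 95% interval -0.75 to 0.04) did not pass the test (adjusted p = 0.277 by edgeR).

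Mstn was lower in the back ST columns. It was at 78.1, 83.1 and 63.2 CPM in the back WT columns and at 51.8, 15.1 and 29.2 CPM in the back ST columns, with no overlap. The difference was -1.19 ± 0.30 on the log2 scale (SE, adjusted p = 0.0409 by edgeR), which is 2.28-fold lower. ST column 1 held the value nearest to the WT columns, and without it the difference was -1.72, with an adjusted p of 2.85e-05.

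Myog and Myf6, the factors of late differentiation and of mature fibres, were also lower in the back ST columns. Myog was at 51.8, 56.6 and 62.2 CPM in the back WT columns and at 40.5, 23.2 and 34.0 CPM in the back ST columns. Myf6 was at 232, 213 and 214 CPM in the back WT columns and at 163, 119 and 140 CPM in the back ST columns. Neither gene had overlapping columns. The log2 differences were -0.78 ± 0.16 for Myog (SE, adjusted p = 0.0183 by edgeR) and -0.64 ± 0.11 for Myf6 (SE, adjusted p = 0.0126 by edgeR). Without back ST column 1 they were -0.96 (adjusted p = 0.000100) and -0.76 (adjusted p = 2.64e-05). Myod1, which acts earlier and marks activated satellite cells, did not pass the test: it was at 26.8, 27.3 and 27.8 CPM in the back WT columns and at 27.0, 23.8 and 29.2 CPM in the back ST columns. Its difference was -0.03 on the log2 scale, with a 95% interval of -0.28 to 0.23, and 0.16 when scaled by library totals alone.

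The sequences before Myog and Myf6 are shown because both genes were lower in the back ST columns. They are the 250 bases before each start in RefSeq, build GRCr8, Myog at chr13:48297226-48297475 on the plus strand and Myf6 at chr7:44701314-44701563 on the minus strand. Capitals mark the same 4 motifs.
Myog: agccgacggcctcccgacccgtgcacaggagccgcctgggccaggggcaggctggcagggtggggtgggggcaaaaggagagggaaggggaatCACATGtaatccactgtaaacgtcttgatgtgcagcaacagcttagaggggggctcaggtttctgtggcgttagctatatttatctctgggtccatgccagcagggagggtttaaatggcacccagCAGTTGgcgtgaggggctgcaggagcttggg
Myf6: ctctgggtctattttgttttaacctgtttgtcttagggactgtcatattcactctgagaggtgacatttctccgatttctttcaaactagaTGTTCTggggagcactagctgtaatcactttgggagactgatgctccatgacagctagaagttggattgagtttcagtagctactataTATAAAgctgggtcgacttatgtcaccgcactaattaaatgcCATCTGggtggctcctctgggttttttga
Myog holds 2 E-boxes, at 157 and 31 bases before the start, and Myf6 holds 1 E-box at 29 bases, a half-site at 159 and a TATA box at 71. No match to the FoxO core lies in either window. The windows of 3 genes not called in back muscle were searched as well. Chrna1 held 3 E-boxes and no other match, and Foxo1 and Pax7 held no match to any of the 4 motifs. Across all RefSeq windows of this length, 3.21% held the FoxO core and 65.5% an E-box, so a window without the core is the usual case.

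Pax7 and Chrna1 had few reads, so only large differences could be seen. Pax7 had between 2 and 24 reads per column in back muscle. It was at 2.35, 4.26 and 2.21 CPM in the back WT columns and at 2.30, 0.56 and 1.92 CPM in the back ST columns, and the difference of -0.83 had a 95% interval of -1.74 to 0.07 on the log2 scale. Chrna1 had between 14 and 38 reads per column. It was at 4.47, 3.37 and 5.37 CPM in the back WT columns and at 6.25, 3.92 and 6.54 CPM in the back ST columns, and the difference of 0.41 had a 95% interval of -0.22 to 1.04. Neither passed the test. Without back ST column 1, the differences were -1.18 for Pax7, 0.34 for Chrna1, -0.30 for Foxo1 and -0.03 for Myod1, and none of the 4 passed. That fit called the other 5 genes and 21.7% of all genes.

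**Figure D1:**
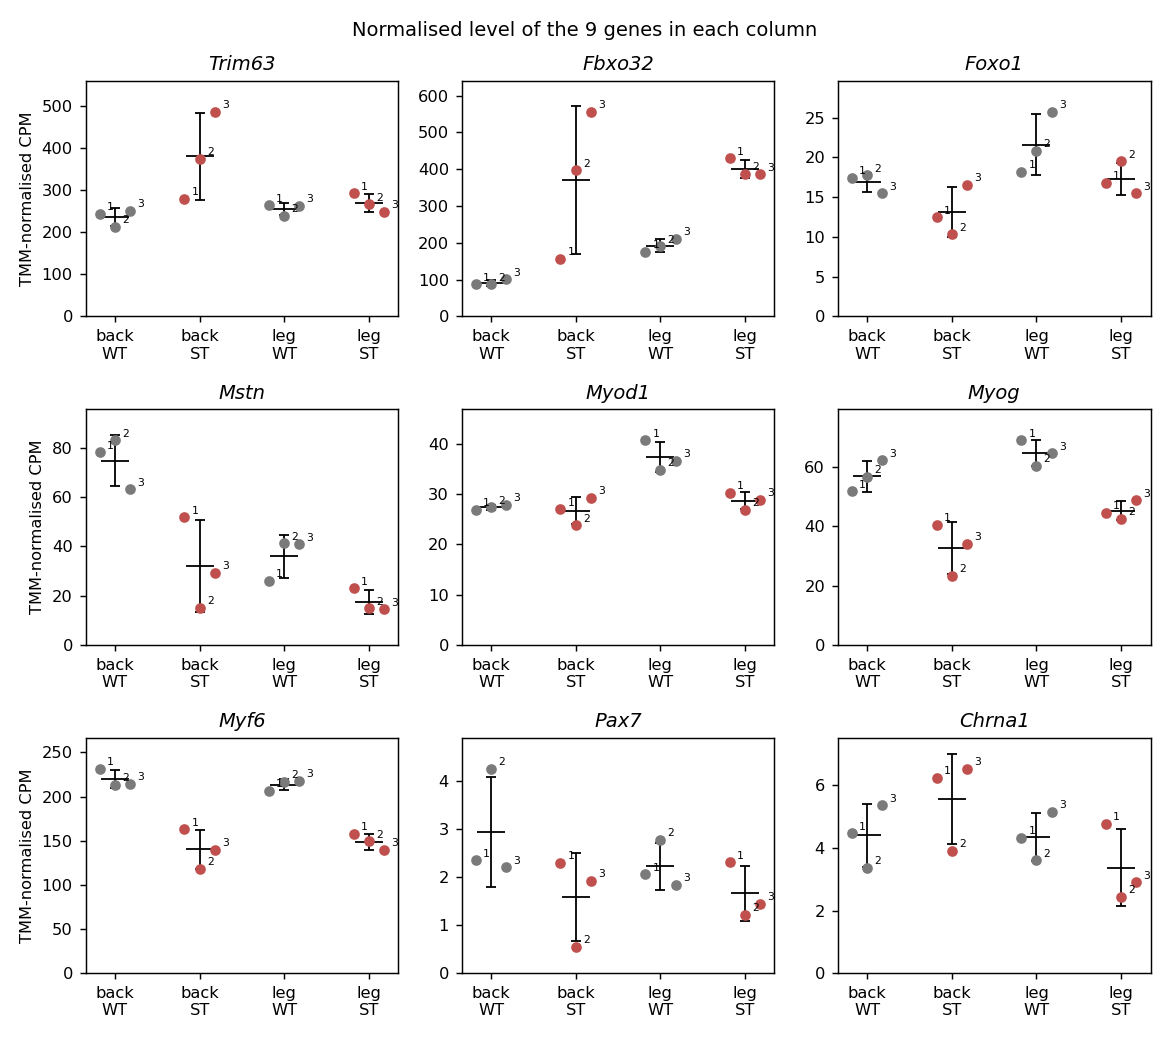
Normalised level (TMM-normalised CPM, linear axis from 0) of each of the 9 genes in the 12 columns, grey for WT and red for ST, with the column number beside each point and the mean ± SD of 3 columns in black. In back muscle, Fbxo32 spans 157 to 556 CPM in ST columns and 87.0 to 101 CPM in WT columns, and ST column 1 is nearest to the WT columns for Fbxo32, Trim63, Mstn, Myog and Myf6.

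Across the 10450 genes, 22.2% had back columns that did not overlap between the codes, against 5 of the 9 genes. The calls depended on the columns in the fit. The Fbxo32 call held when each of the 12 columns was left out in turn, with adjusted p up to 0.0418. Leaving out back ST column 3 or any of the 3 back WT columns ended the calls of Trim63, Mstn, Myog and Myf6, with adjusted p of 0.0505 to 0.152. Leaving out back ST column 2 ended those of Trim63 (0.0712) and Mstn (0.0962). The Trim63 call also ended without leg ST column 2 (0.0516), and that of Mstn without leg ST column 2 or 3 or leg WT column 2 or 3 (0.0556 to 0.0592). With only the 6 back columns in the fit, 2 genes were called in all and none of the 8 members tested, Pax7 having missed the filter, and Fbxo32 had an adjusted p of 0.115.

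**Figure D2:**
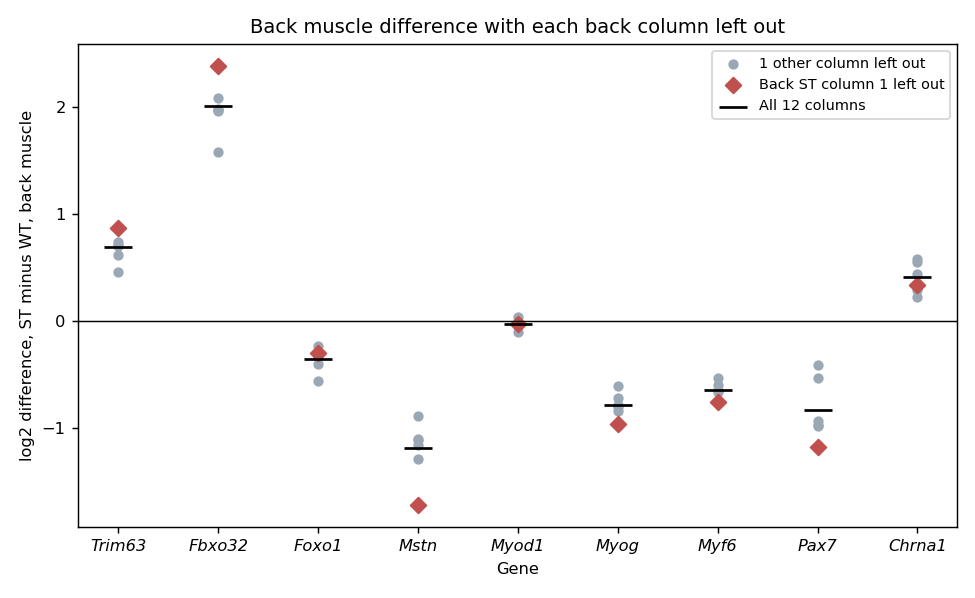
log2 difference, ST minus WT, in back muscle for each gene with all 12 columns (black bar), with back ST column 1 left out (red diamond) and with each of the other 5 back columns left out (grey points). The sign stays the same for 8 genes, and Myod1 lies between -0.10 and 0.04. Fbxo32, Trim63, Mstn, Myog, Myf6 and Pax7 lie farthest from 0 without back ST column 1.

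In leg muscle, none of the 9 genes passed the test in the fit of all 12 columns. The ST columns lay wholly above the WT columns for Fbxo32 and wholly below them for Mstn, Myod1, Myog and Myf6. The background was 0.0766% of all genes called, or 8 genes. The median difference was -0.33 on the log2 scale over the 9 genes and 0.01 over all genes tested. These 5 of the 9 genes compare with 25.0% of all genes tested whose leg columns did not overlap between the codes.

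Fbxo32 was at 176, 190 and 210 CPM in leg WT columns 1 to 3 and at 429, 387 and 386 CPM in leg ST columns 1 to 3. The 3 ST columns were close together and all above the WT columns. The difference was 1.06 ± 0.29 on the log2 scale (SE, adjusted p = 0.151 by edgeR), or 2.08-fold. Trim63 was at 264, 240 and 263 CPM in the leg WT columns and at 293, 267 and 250 CPM in the leg ST columns, which overlapped. Its difference was 0.08, with a 95% interval of -0.26 to 0.41 on the log2 scale.

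Mstn was at 26.0, 41.2 and 40.8 CPM in the leg WT columns and at 23.0, 14.9 and 14.5 CPM in the leg ST columns (log2 difference -1.01 ± 0.33, SE, adjusted p = 0.198 by edgeR). Myog was at 68.9, 60.4 and 64.6 CPM in the leg WT columns and at 44.6, 42.5 and 48.7 CPM in the leg ST columns (-0.52 ± 0.15, SE, adjusted p = 0.179 by edgeR). Myf6 was at 206, 216 and 218 CPM in the leg WT columns and at 158, 149 and 140 CPM in the leg ST columns (-0.52 ± 0.11, SE, adjusted p = 0.118 by edgeR). For each of the 3, every ST column lay below every WT column.

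Myod1 was at 40.7, 34.8 and 36.6 CPM in the leg WT columns and at 30.2, 26.9 and 28.8 CPM in the leg ST columns, also without overlap (log2 difference -0.38 ± 0.12, SE, adjusted p = 0.184 by edgeR). Foxo1 ranged from 18.2 to 25.8 CPM in the leg WT columns and from 15.5 to 19.5 CPM in the leg ST columns. Pax7, with 5 to 15 reads per column, and Chrna1, with 10 to 31, overlapped between the codes.

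The leg calls depended on which columns and genes entered the fit. With only the 6 leg columns in the fit, Fbxo32 was called higher (adjusted p = 2.83e-06) and Mstn (0.00333), Myog (0.00588) and Myf6 (0.00111) lower by edgeR, and 7.08% of all genes were called. Leaving out back ST column 1, which changes no leg count, gave the same 4 calls, with adjusted p of 3.96e-05, 0.0135, 0.0191 and 0.00248 and 4.61% of all genes called. Leaving out back ST column 2 gave calls for Myog (0.0479) and Myf6 (0.0309), with 0.71% of all genes called. With no filter on low counts the same 4 genes were called (1.00e-10 for Fbxo32, 2.10e-07 for Mstn, 0.0169 for Myog and 0.00853 for Myf6), with 2.47% of all genes called. DESeq2 gave an adjusted p for only 2 of the 9 genes and called Fbxo32 (0.0360), with 0.785% of all genes called. None of the 9 genes was called with library totals alone, at least 10 counts in 6 columns, limma-voom or the replicate number as a block. Leaving out any 1 leg column also gave no call. With 1 column left out, adjusted p by edgeR rose to as much as 0.439 for Fbxo32, 0.502 for Mstn, 0.442 for Myog and 0.433 for Myf6. The Fbxo32 difference was 1.06 with all columns, with the leg columns alone and without back ST column 1. The biological coefficient of variation, the spread between columns beyond counting, was 0.145 with all columns and 0.103 without back ST column 1.

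**Figure D3:**
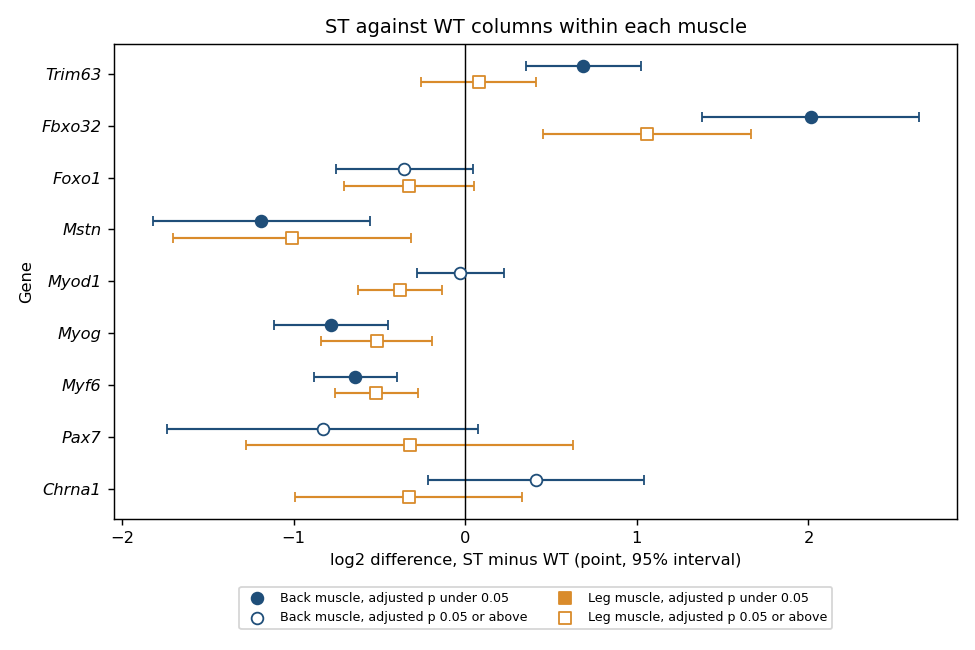
log2 difference, ST minus WT, with its 95% interval for the 9 genes in back muscle (blue circles) and leg muscle (orange squares) from the fit of all 12 columns; filled symbols passed an adjusted p of 0.05. Fbxo32 is at 2.01 in back and 1.06 in leg muscle, and Mstn, Myog and Myf6 lie below 0 in both.

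The difference between the muscles in ST minus WT was tested as an interaction. edgeR called 0 of the 10450 genes (0%), with 1074 at an unadjusted p under 0.05. DESeq2 called 59, none of them among the 7 members for which it gave an adjusted p, and limma-voom called 0. The largest interaction among the 9 was that of Fbxo32, whose ST minus WT difference was lower in leg than in back by 0.95 ± 0.40 on the log2 scale (SE, adjusted p = 0.438 by edgeR). Chrna1 (-0.74 ± 0.43, SE, adjusted p = 0.600 by edgeR), Trim63 (-0.61 ± 0.22, SE, adjusted p = 0.358 by edgeR) and Myod1 (-0.35 ± 0.17, SE, adjusted p = 0.483 by edgeR) lay in the same direction. Foxo1 (0.03), Mstn (0.18), Myog (0.26), Myf6 (0.12) and Pax7 (0.51) lay in the other direction and did not pass. With no filter on low counts Fbxo32 passed (-0.97, adjusted p = 0.00018), with 1.38% of all genes called, in a fit that pooled the spread across genes. Without back ST column 1 Fbxo32 passed at -1.32 (adjusted p = 6.57e-05) and Trim63 at -0.79 (adjusted p = 0.00391), with 6.16% of all genes called. Of the 12 fits that left out a column, only that 1 called either gene. Back ST column 1 held the lowest back ST value of both genes, so leaving it out had to move both interactions further from 0. The passes without it are therefore a description and no added support. Without back ST column 3 the interactions shrank to -0.53 for Fbxo32 (adjusted p = 0.685 by edgeR) and -0.39 for Trim63. For Mstn, Myog and Myf6 the interaction did not pass in any of these fits.

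Ratios of read counts within a column do not depend on scaling between columns, and are given as a description since they were chosen after the values were seen. The ratio of Fbxo32 to Trim63 reads was 0.358, 0.408 and 0.400 in the back WT columns and 0.560, 1.06 and 1.14 in the back ST columns. In leg muscle it was 0.667, 0.794 and 0.799 in the WT columns and 1.46, 1.45 and 1.55 in the ST columns. In both muscles the ST columns lay above the WT columns. The ratio of Myog to Myod1 reads was 1.93, 2.07 and 2.24 in the back WT columns and 1.50, 0.976 and 1.16 in the back ST columns. In leg muscle it was 1.70, 1.74 and 1.76 in the WT columns and 1.47, 1.58 and 1.69 in the ST columns, where the highest ST value lay just below the lowest WT value.

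**Figure D4:**
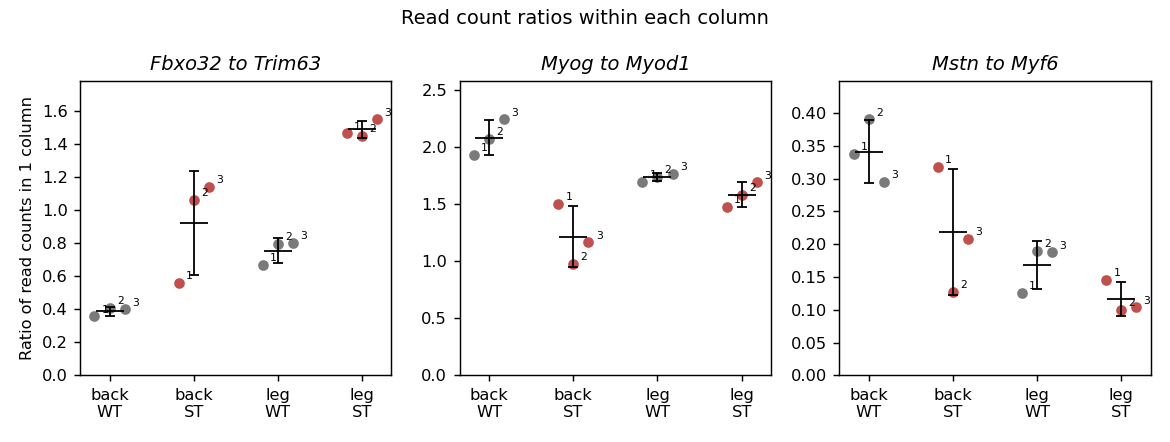
Ratio of read counts of 2 genes within each column (linear axis from 0), grey for WT and red for ST, with column numbers and the mean ± SD of 3 columns in black. The Fbxo32 to Trim63 ratio is higher in the ST columns of both muscles, while the Mstn to Myf6 ratio overlaps between the codes in both.

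Leg and back muscle were then compared over both codes. Of the 9 genes, 3 were higher in leg muscle (Fbxo32, Myod1 and Myog) and 1 was lower (Mstn), against a background of 22.6% of all genes called, 2366 in number. The median difference was 0.02 on the log2 scale over the 9 genes and 0.00 over all genes tested. None of the 9 genes had leg columns wholly apart from back columns once both codes were pooled, against 6.05% of all genes tested. Without back ST column 1 the differences were 0.41 for Fbxo32 (adjusted p = 0.00194), 0.28 for Myod1 (0.0354), 0.41 for Myog (0.00422) and -0.71 for Mstn (0.00384), all 4 still called by edgeR, with 21.0% of all genes called. Within the WT columns 3 of the 9 genes were called, against 13.9% of all genes, and within the ST columns none, against 8.23%. Within the ST columns but without back ST column 1, a fit added after the data were seen, Trim63 was lower in leg muscle (-0.68, adjusted p = 0.00116 by edgeR) and Myog higher (0.63, adjusted p = 0.0118 by edgeR), with 7.95% of all genes called. Column 1 was the lowest back ST column for Trim63 and the highest for Myog. Leaving it out therefore had to enlarge their leg minus back differences, within the ST columns and over both codes. The smaller p-values without it are a description and no added support for these genes.

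Mstn ranged from 14.5 to 41.2 CPM over the 6 leg columns (median 24.5) and from 15.1 to 83.1 CPM over the 6 back columns (median 57.5). The difference, leg minus back, was -0.98 ± 0.22 on the log2 scale (SE, adjusted p = 0.00521 by edgeR), and the call held with each column left out. Within the WT columns it was -1.06 (adjusted p = 0.0279) and within the ST columns -0.89 (adjusted p = 0.111), or -0.35 without back ST column 1 (adjusted p = 0.483).

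Fbxo32 was higher in leg than in back muscle by 0.59 ± 0.20 on the log2 scale (SE, adjusted p = 0.0463 by edgeR). Within the WT columns all leg values (176 to 210 CPM) lay above all back values (87.0 to 101 CPM), a difference of 1.07 (adjusted p = 0.0249), while within the ST columns it was 0.12 (adjusted p = 0.859), and -0.25 without back ST column 1 (adjusted p = 0.247). The test of that difference is the interaction given above. The pooled call was lost in 9 of 12 fits that left out a column, every one but those without a back ST column, with adjusted p of up to 0.0972, and with DESeq2 (0.0987).

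Myod1 was higher in leg muscle by 0.28 ± 0.08 on the log2 scale (SE, adjusted p = 0.0244 by edgeR). Within the WT columns it was at 34.8 to 40.7 CPM in leg and 26.8 to 27.8 CPM in back muscle (0.45, adjusted p = 0.0184), and within the ST columns the difference was 0.10 (adjusted p = 0.680, and 0.732 without back ST column 1). Its call was lost without back ST column 2, back WT column 1 or 2, leg ST column 1 or 3 or leg WT column 1 (0.0552 to 0.0787), and with DESeq2 (0.0751) or no filter on low counts (0.0924). Myog was higher in leg muscle by 0.32 ± 0.11 (SE, adjusted p = 0.0439 by edgeR), and its call was lost in 11 of 12 fits that left out a column, all but that without back ST column 1, with adjusted p of up to 0.113, and with the replicate number as a block (0.0580).

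Myf6 did not pass the test between the muscles (0.02 on the log2 scale, standard error 0.08), with levels from 119 to 232 CPM in back and from 140 to 218 CPM in leg muscle. Scaled by library totals alone, the Myf6 difference was 0.25 and passed (adjusted p = 0.0148). Foxo1 was at 10.4 to 17.7 CPM in back and 15.5 to 25.8 CPM in leg muscle, a difference of 0.37 ± 0.13 (SE, adjusted p = 0.0539 by edgeR). It passed with a filter of at least 10 counts in 6 columns (0.0497), with no filter (0.0446), with library totals alone (0.00586), without back ST column 3 (0.0162) and without leg WT column 1 (0.0340). Trim63 (-0.19), Pax7 (-0.23) and Chrna1 (-0.32) did not pass in the fit of all columns. The differences without back ST column 1 were 0.34 for Foxo1, 0.08 for Myf6, -0.07 for Pax7 and -0.27 for Chrna1, and none of the 4 passed. Leaving out back ST column 1 had to enlarge the Trim63 difference. Trim63 was then called lower in leg muscle (-0.28, adjusted p = 0.0154 by edgeR). The Trim63 sign changed with library totals alone (0.0233).

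**Figure D5:**
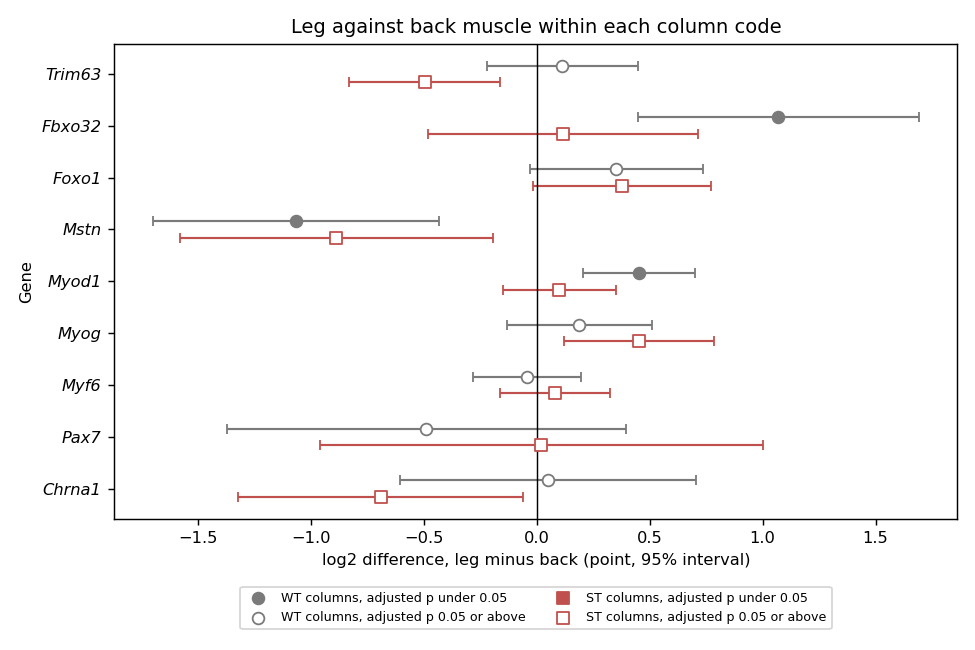
log2 difference, leg minus back, with its 95% interval for the 9 genes within the WT columns (grey circles) and within the ST columns (red squares); filled symbols passed an adjusted p of 0.05. Fbxo32 (1.07), Myod1 (0.45) and Mstn (-1.06) passed within the WT columns and none of the 9 within the ST columns, against 13.9% and 8.23% of all genes.

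Put in order of mean level, the 4 sets of columns did not follow 1 shared sequence. Fbxo32 ran from back WT (91.8 ± 7.8 CPM, SD, n = 3) through leg WT (192 ± 17) and back ST (370 ± 201) to leg ST (401 ± 24), and the back ST columns overlapped both leg sets. Without column 1 the back ST mean was 477 CPM (n = 2), above that of leg ST, with which the columns still overlapped. Mstn ran the other way, from leg ST (17.5 ± 4.8 CPM, SD, n = 3) through back ST (32.0 ± 18.5) and leg WT (36.0 ± 8.7) to back WT (74.8 ± 10.4), with the back ST columns overlapping both leg sets and the back WT columns above all others. Without column 1 the Mstn mean of back ST was 22.2 CPM (n = 2). Myf6 split by code, with back ST (141 ± 22 CPM, SD, n = 3) and leg ST (149 ± 9) overlapping each other and leg WT (213 ± 6) and back WT (220 ± 10) overlapping each other. Trim63 had its highest mean in back ST (381 ± 103 CPM, SD, n = 3), with the other 3 sets at means between 237 and 270 CPM. Back ST column 1, at 281 CPM, lay within the leg ST range of 250 to 293 CPM, and the mean without it was 431 CPM (n = 2). Myod1 stood out in leg WT (37.3 ± 3.0 CPM, SD, n = 3), above the other 3 sets, which overlapped at means of 26.7 to 28.6 CPM. Myog ran from back ST (32.6 ± 8.7 CPM, SD, n = 3) through leg ST (45.3 ± 3.1) to back WT (56.9 ± 5.2) and leg WT (64.6 ± 4.3), and only the last 2 overlapped. The sequence of the sets was the same without column 1 for Mstn, Trim63, Myod1, Myog and Myf6.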

How the data were processed

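Total RNA of rat muscle was purified with a Direct-zol kit and the libraries were sequenced from both ends, per the labels' protocols. Reads were aligned with STAR, per the submitters' processing notes, which also name DESeq2. Versions, genome build, annotation and strand setting were not given in the sources used here, so reads of overlapping or antisense genes cannot be told apart. The deposited values are raw read counts per gene, with 4 further rows for unmapped, multimapping, unfeatured and ambiguous reads, per the file headers. Those rows were left out of library sizes.

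Each of the 12 columns was tied to its muscle by its name. Nothing ties a column to 1 labelled replicate, so p-values measure the spread between these columns. The fit with no filter on low counts pooled the spread across genes, so its p-values do not measure each gene's own. All 12 were fitted together with edgeR 4.0.16 (R 4.3.3): filterByExpr, TMM, quasi-likelihood F tests, Benjamini-Hochberg over 10450 genes, threshold 0.05, with 4 sets of columns (muscle by code). The SE is the log2 difference over the square root of F, and intervals are at 95%, unadjusted. limma 3.58.1 and DESeq2 1.42.0 were alternatives. Scripts were tested on simulated data. No 2 columns of a set agreed within sampling noise (chi-square per degree of freedom of at least 2.07).

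The 9 genes, their symbols and the motifs were chosen with earlier results of these data known. Every one of the 9 is named. Lists of related genes and cell type markers were not analysed here, because no table used here pairs the row identifiers with symbols.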

Additional observations from a re-analysis of the deposited data

How the results depend on the processing

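The count of genes called for ST minus WT in back muscle (395) was 784 with library totals alone, 1173 with no filter on low counts, 608 with DESeq2 and 2 with only the back columns, and ran from 30 (without back WT column 2) to 2336 (without back ST column 1) when 1 column was left out. In leg muscle (8) it was 21 with library totals alone, 503 with no filter, 82 with DESeq2, 4 with limma-voom and 694 with only the leg columns, and 2 to 495 with 1 column left out. The interaction count (0) was 280 with no filter, 59 with DESeq2, and 0 to 662 with 1 column left out. For leg minus back (2366) it was 1450 within WT and 860 within ST columns, 854 within ST columns without back ST column 1 (added after the data were seen), and 1858 to 2766 with 1 column left out. The causes were not tested. Library totals alone moved the median of all genes (log2) from 0.011 to 0.20 for ST minus WT in back muscle and from 0.008 to 0.19 in leg muscle. For leg minus back it moved from -0.003 to 0.23. The share of calls that were higher went from 63.3% to 85.6% in back, from 62.5% to 90.5% in leg and from 51.7% to 87.8% between muscles.

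The numbers in the column names were not taken to pair columns: same-numbered deviations had correlations of -0.10 to 0.05 between codes within a muscle and of -0.07 to 0.18 between muscles within a code, not all over 0.1. With the number, within each muscle, as a replicate block the counts were 442, 10, 0 and 2196. The only call among the 9 genes that this changed was that of Myog for leg minus back.

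Of 716 alternative values for the 9 genes, 604 kept direction and call, 65 lost a call, 26 gained one and 21 changed sign. Of the differences that changed sign, only that of Fbxo32 for leg minus back was called in the fit of all columns. Sign changes were as follows. For leg minus back they were Fbxo32 (-0.252) and Pax7 (0.364) within ST columns without back ST column 1, Chrna1 (0.0498, WT columns), Myf6 (-0.0413, WT columns; -0.0414 to 0.0785 with 1 column left out), Pax7 (0.0098, library totals; 0.0205, ST columns) and Trim63 (0.0233, library totals; 0.114, WT columns). For ST minus WT in back muscle it was Myod1 (0.16, library totals; -0.104 to 0.0396 with 1 column left out). For the interaction they were Foxo1 (-0.10 to 0.22) and Mstn (-0.13 to 0.72), each with 1 column left out. DESeq2 called Fbxo32 higher in leg ST columns (0.0360) and gave no adjusted p for 7 of the 9 genes there. Low counts limit Pax7 and Chrna1.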

Other observations

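Likeness of pattern was measured as Pearson's r of log2 CPM over the 12 columns, which fall into 4 sets and share their libraries, and is a description only. Among the 9 genes the highest r was that of Myog and Myf6 (0.87, Spearman 0.73) and the lowest that of Fbxo32 and Mstn (-0.87, Spearman -0.79), and both pairs also had the extreme r without back ST column 1 (0.86 and -0.87). The order depended on the measure. By Spearman's rho the highest pair was Mstn and Pax7 (0.78). As deviations from the mean of each set, the highest r was that of Mstn and Myf6 (0.92), followed by Trim63 and Fbxo32 (0.91), against 0.65 for Myog and Myf6, and the lowest was that of Fbxo32 and Myf6 (-0.57), against -0.52 for Fbxo32 and Mstn. Of 10449 other genes, 76 had an r above 0.9 with Fbxo32, 152 with Mstn and 29 with Myf6, while 0 had one with Foxo1 or Chrna1. In each case the gene nearest to one of the 9 was not another of the 9. Nearly all of the 10449 genes searched lie outside the 9, so this outcome was likely in advance.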
